A study of Eublepharis macularius with 4 samples.

Results

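The 10 genes described here, of 24025 features in the files, belong to fibroblast growth factor (FGF) signalling. They were chosen by name and comprise the ligands FGF3, FGF7 and FGF10, the binding protein FGFBP2, the receptors FGFR1, FGFR2 and FGFR3, and the feedback inhibitors SPRY1, SPRY2 and SPRY4. FGF ligands bind receptor tyrosine kinases at the cell surface with the help of heparan sulfate, and the receptors pass the signal on through RAS and the ERK kinases. In the tooth and other skin appendages of mammals, FGF7 and FGF10 are made by mesenchyme and act mainly on the epithelial splice form of FGFR2, and FGF3 and FGF10 are made by the dental mesenchyme. Sprouty proteins are induced by the signal and damp it.

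Single cells were prepared from jaw soft tissue of adult leopard geckos (Eublepharis macularius), lizards whose teeth are replaced all through adulthood, and were sequenced as 4 droplet libraries of 2 animals. The digestion of LG252 tissue took 4 to 5 h at 37 °C in collagenase D (1.5 U/ml) mixed with dispase II (2.4 U/ml). That of LG255 tissue took 6 h at 4 °C in protease of Bacillus licheniformis (10.0 mg/ml). No treatment or genotype is given for either animal, and live cells of both were sorted with propidium iodide. Each animal gave 2 libraries, replicate 1 and replicate 2, and animal and digestion cannot be told apart. The titles call the libraries biological replicates, but what separated the libraries of 1 animal is not given, so p-values measure only the spread between these libraries, which may be technical.

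The libraries hold 755 to 4355 cell barcodes and 4535439 to 20754804 UMIs (counted RNA molecules), with a median of 3186 to 7522 UMIs per barcode. Epithelial cells, with at least 10 UMIs of LOC129339097, numbered 2541 of 8612 barcodes. Mesenchymal cells, with at least 5 UMIs summed over COL1A1, COL1A2, DCN and LUM, numbered 1314, other cells 4687, and 70 barcodes that met both rules were left out. The mesenchymal class held 395 and 794 cells in the LG252 libraries but 19 and 106 in the LG255 libraries, so the LG255 mesenchymal values rest on few molecules. An independent list of epithelial markers (EPCAM, TP63 and others, 6 of its 10 genes being in the files) summed to 2309 to 2731 CPM (UMIs of a gene or list per 1000000 UMIs of the cells summed) in the epithelial class and 34.6 to 190 CPM in the mesenchymal class, and a mesenchymal list (COL3A1, PDGFRA and others) to 7728 to 10967 CPM in the mesenchymal class and 50.8 to 141 CPM in the epithelial class. The other cells are mixed: of them, 738, 298, 180 and 207 (LG252 replicates 1 and 2, then LG255 replicates 1 and 2, the order used throughout) carried at least 1 UMI of LOC129339097, and the epithelial list reached 72.4 to 1029 CPM there. Between any pair of libraries 2 to 8 cell barcodes were shared, 30 in all.

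Class comparisons were made on UMIs summed per library and class with the quasi-likelihood test of edgeR, with the library as a block and Benjamini-Hochberg adjustment over all genes tested (threshold 0.05). Between epithelial and mesenchymal cells the test called 5 of the 7 members that passed the filter on low counts, beside 27.6% of all 12275 genes tested. FGF7, FGF10, FGFR1 and SPRY2 were lower in epithelial cells and FGFR3 was higher. FGFR2 and SPRY1 were not called, and FGF3, SPRY4 and FGFBP2 had too few molecules to pass the filter. The median log2 fold change was -1.10 over the 7 members and 0.05 over all genes.

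**Figure D1:**
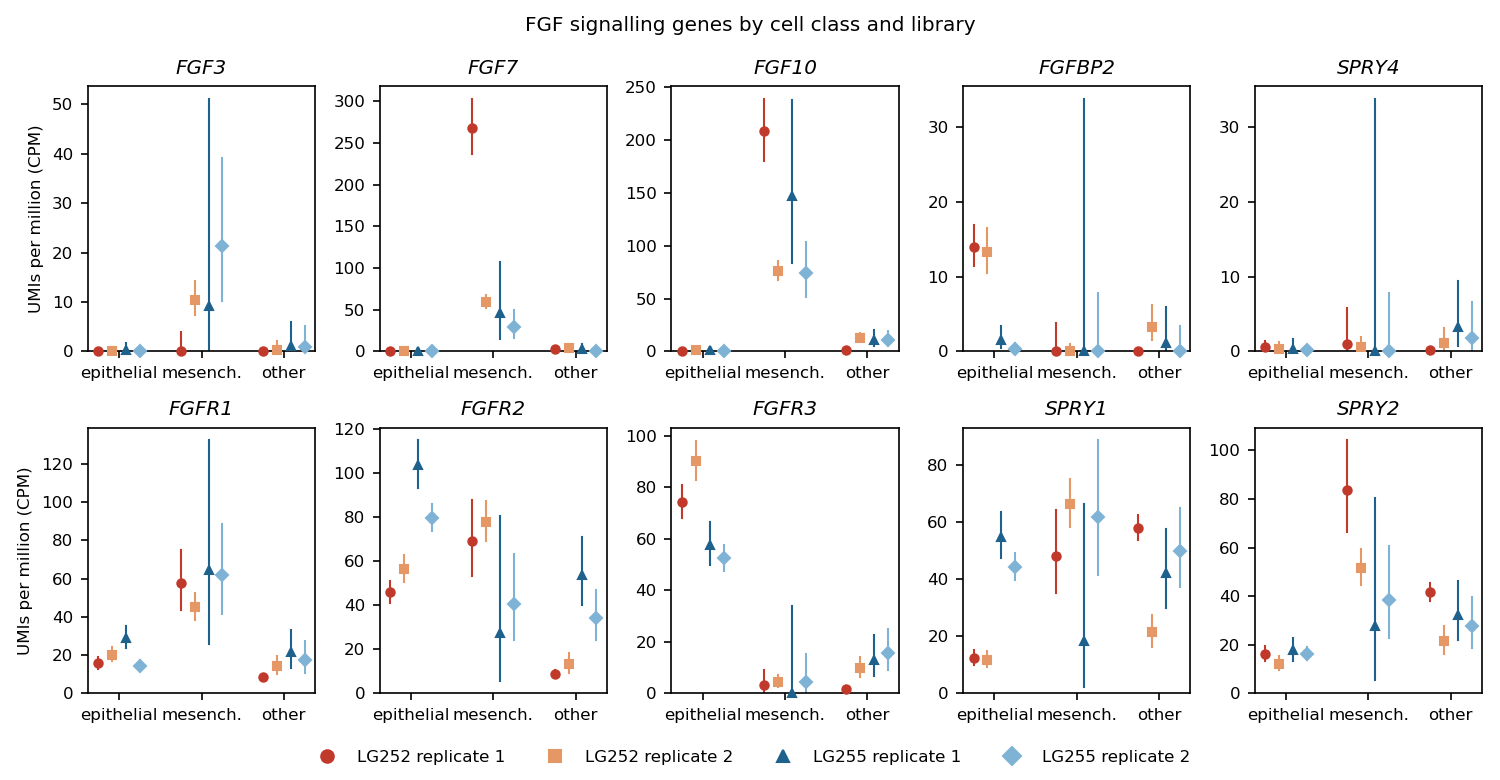
Level of each of the 10 members in epithelial, mesenchymal and other cells, as CPM of the summed UMIs, with 1 point per library and exact 95% Poisson bars that cover counting error only. FGF7 and FGF10 sit at 29.8 CPM or more in the mesenchymal cells of each library and at 1.18 CPM or less in epithelial cells, whereas FGFR3 lies at 52.4 CPM or more in epithelial cells and at 4.53 CPM or less in mesenchymal cells.

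The ligands were found mainly in mesenchymal cells. FGF7 (chromosome 18, 27411360 to 27457233, assembly MPM_Emac_v1.0), an epithelial growth factor in mammals, was at 268, 59.4, 45.9 and 29.8 CPM in mesenchymal cells, from 256, 223, 5 and 14 UMIs. Epithelial cells held 2, 4, 3 and 1 UMIs of it, or 0.123 to 0.887 CPM. The classes did not overlap in any library, and FGF7 was 142-fold lower in epithelial than in mesenchymal cells (log2 fold change -7.15, SE 0.72, edgeR adjusted p = 5.92e-05, n = 4 libraries). It was 28.7-fold higher in mesenchymal than in other cells, which held 0 to 4.36 CPM (log2 fold change 4.84, SE 0.67, adjusted p = 0.000601). FGF7 passed the filter on low counts through its mesenchymal counts. The direction of both calls was thus nearly fixed in advance, and the calls add little to the counts.

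FGF10 (chromosome 8, 26989432 to 27110001), the ligand that drives budding of many epithelial organs in mammals, was at 208, 76.2, 147 and 74.6 CPM in mesenchymal cells, from 199, 286, 16 and 35 UMIs. In epithelial cells it was at 0.136, 1.16, 1.18 and 0 CPM, and in other cells at 1.15, 12.4, 10.8 and 11.1 CPM. Each mesenchymal value thus lay above each value of both remaining classes. The fitted level was 177-fold lower in epithelial than in mesenchymal cells (log2 fold change -7.47, SE 0.99, edgeR adjusted p = 0.000298) and 12.9-fold higher in mesenchymal than in other cells (3.69, SE 0.86, adjusted p = 0.0103). The second of these calls was lost without LG252 replicate 2 (4.27, adjusted p = 0.0534). Epithelial values of at most 1.18 CPM could not have carried FGF10 past the filter on low counts. The direction of the first call was thus nearly fixed in advance, and that call adds little to the counts.

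FGF3 (chromosome 2, 96635791 to 96647271), a ligand of the signalling centres and papilla of the mammalian tooth, was rare, with 58 UMIs in all 8612 barcodes. Mesenchymal cells held 0, 39, 1 and 10 of these UMIs, or 0, 10.4, 9.18 and 21.3 CPM, and epithelial cells 0, 1, 1 and 1. Over the 4 libraries, 50 mesenchymal UMIs stood against 3 epithelial UMIs, a ratio of CPM of 78.5 (exact 95% interval 25.4 to 393, counting error only). No FGF3 molecule was counted in the 395 mesenchymal cells of LG252 replicate 1, where 3 counts would be 3.14 CPM, whereas LG252 replicate 2, from the same animal, held 39. Without LG252 replicate 1, the library with no mesenchymal FGF3, FGF3 passed the filter through its mesenchymal counts. Its call there as lower in epithelial cells was thus nearly fixed in advance and adds no support to the counts.

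FGF3 and FGF10 were often found in the same mesenchymal cells, and FGF3 and FGF7 in none. Of 28 mesenchymal cells with a UMI of FGF3, 22 (78.6%) also had one of FGF10, against 25.7% of the mesenchymal cells without FGF3. By library this was 18 of 23 cells in LG252 replicate 2, 1 of 1 in LG255 replicate 1 and 3 of 4 in LG255 replicate 2. None of the 28 had a UMI of FGF7. In LG252 replicate 2, LG255 replicate 1 and LG255 replicate 2, FGF7 was in 14.8%, 11.1% and 8.82% of the mesenchymal cells without FGF3. The share over all libraries, 21.7%, includes LG252 replicate 1, which had FGF7 in 39.0% of its mesenchymal cells and no FGF3 cell. Depth was not matched: in LG252 replicate 2 the FGF3 cells had a median of 7122 UMIs and the cells with none of these ligands 3790.5. FGF7 and FGF10 shared 102 cells, and FGF10 was found in 44.8% of FGF7 cells and 27.8% of cells without FGF7 in LG252 replicate 1, but in 24.6% and 23.7% in LG252 replicate 2.

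Mesenchymal cells divided by the ligand they carried differed in other genes, which are given for LG252 replicate 2, the library with most FGF3 cells, as a description of 1 library with genes chosen after their values were seen. The 23 cells with FGF3 held 258 CPM of RSPO2 and 577 CPM of RSPO4, both enhancers of WNT signalling, and 115 CPM of EDAR, the ectodysplasin receptor. The 143 cells with FGF10 but neither other ligand held 79.4, 415 and 37.6 CPM of the same genes, and the 86 cells with FGF7 alone 10.7, 14.2 and 0 CPM. The order ran from FGF3 through FGF10 to FGF7 cells for all 3 genes.

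TAGLN and ACTA2, which encode contractile proteins of smooth muscle and myofibroblasts, stood at 1125 and 744 CPM in the FGF7 cells, against 26.5 and 25.1 CPM in FGF10 cells and 5.50 and 0 CPM in FGF3 cells. These molecules lay in 8 (TAGLN) and 12 (ACTA2) of the 86 FGF7 cells, so most FGF7 cells held none. No UMI of the matrix genes POSTN and MFAP5 or of the ligand WNT5A was counted in the FGF3 cells. Against the floor of 3 counts, POSTN was at least 12.3-fold, MFAP5 at least 10.7-fold and WNT5A at least 8.76-fold higher in the mesenchymal cells of that library without FGF3. In LG252 replicate 1, TAGLN was at 667 CPM in FGF7 cells (in 7 of 85 cells), 23.2 CPM in FGF10 cells, 316 CPM in cells with both ligands (in 2 of 69 cells) and 439 CPM in cells with none, and ACTA2 at 835, 139, 583 and 632 CPM. The contractile genes were thus also high there in cells without FGF7. RSPO4 was at 0 in each of these groups of that library, and POSTN was at 1339 CPM in FGF7 cells and 1425 CPM in FGF10 cells. The mesenchymal cells of the LG252 libraries thus differed in these genes, and levels of the dental mesenchyme gene MSX1 ran from 143 to 236 CPM over the 5 groups of replicate 2 (cells with FGF7 and FGF10 included) and from 14.2 to 113 CPM over the 4 groups of replicate 1.

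**Figure D2:**
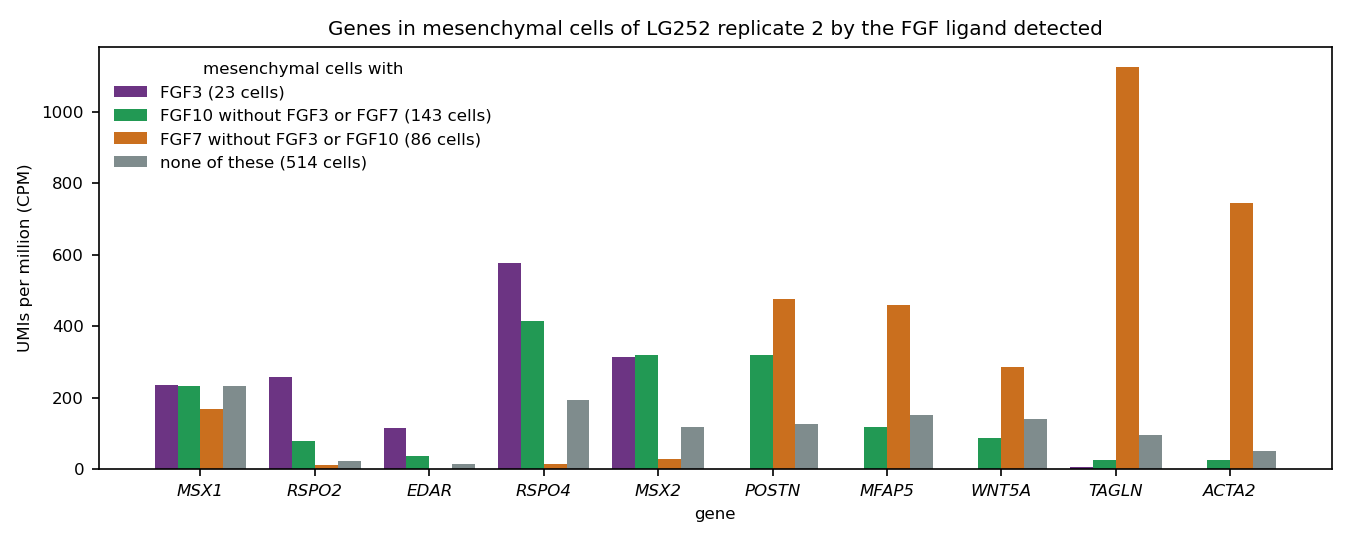
Levels of 10 genes, as CPM, in mesenchymal cells of LG252 replicate 2 divided by the ligand carried: 23 cells with FGF3, 143 with FGF10 only, 86 with FGF7 only and 514 with none of them. RSPO2, EDAR and RSPO4 are highest in the FGF3 cells, and TAGLN and ACTA2 in the FGF7 cells, where they come from 8 and 12 of the 86 cells. One library is shown, without replicates, and its 28 cells with both FGF7 and FGF10 are not drawn.

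Splitting the mesenchymal class by the dental mesenchyme markers MSX1 and LHX8 (at least 1 UMI) gave no called difference in FGF7 or FGF10. FGF3 did not pass the filter on low counts and was not tested. Marker cells were also deeper, with a median of 2737.5, 4958 and 3617.5 UMIs in LG252 replicates 1 and 2 and LG255 replicate 2. The remaining mesenchymal cells there had 1658, 1725 and 2988. None of the 6 members tested was called between marker cells and the remaining mesenchymal cells, none had an unadjusted p under 0.05, and 0.0353% of 5659 genes were called, in edgeR fits of the 3 libraries with enough cells. FGF10 gave a log2 fold change of 0.09 and FGF7 of -0.35, and both changed sign when single libraries were left out.

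Outside the mesenchymal class, FGF10 molecules were found in cells with endothelial markers. Other cells with at least 3 UMIs of PECAM1, CDH5, KDR and related genes, and without the immune markers, numbered 46, 76, 28 and 13, and held 3, 24, 9 and 2 UMIs of FGF10, or 25.4, 75.4, 92.4 and 73.3 CPM. Cells with immune markers held 2, 1, 1 and 0 UMIs of it. Other cells with neither marker set held 27 UMIs of FGF10 over all libraries, in 19 cells, or 4.09 CPM. Summed over libraries the endothelial marker cells stood at 0.668 of the mesenchymal level (exact 95% interval 0.467 to 0.929) and at 159 times the immune level (57.1 to 612), intervals that cover counting error only. The first ratio rested on LG252 replicate 1, without which it was 1.02 (0.696 to 1.44). A further 29 and 31 cells of the LG252 libraries met both the endothelial and the immune rule and held 1 UMI of FGF10 and 5 of FGF7. With them the ratio to mesenchymal cells was 0.403 (0.283 to 0.558). Both alternatives were chosen after seeing the data. FGF7 gave 1 UMI in the endothelial marker cells without immune markers. The latter cells also carried the mesenchymal list at 186 to 659 CPM, and the FGF10 molecules lay in 2, 9, 6 and 1 cells. CLDN5, a gene of the endothelial rule, was also counted in mesenchymal cells of LG252 replicate 2. It gave 76 UMIs in 161 cells with FGF10 but not FGF7, and 0 in 86 cells with FGF7 but not FGF10. The part of carried-over or mixed mesenchymal RNA, or of mesenchymal cells below the class minimum, was not tested.

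**Figure D3:**
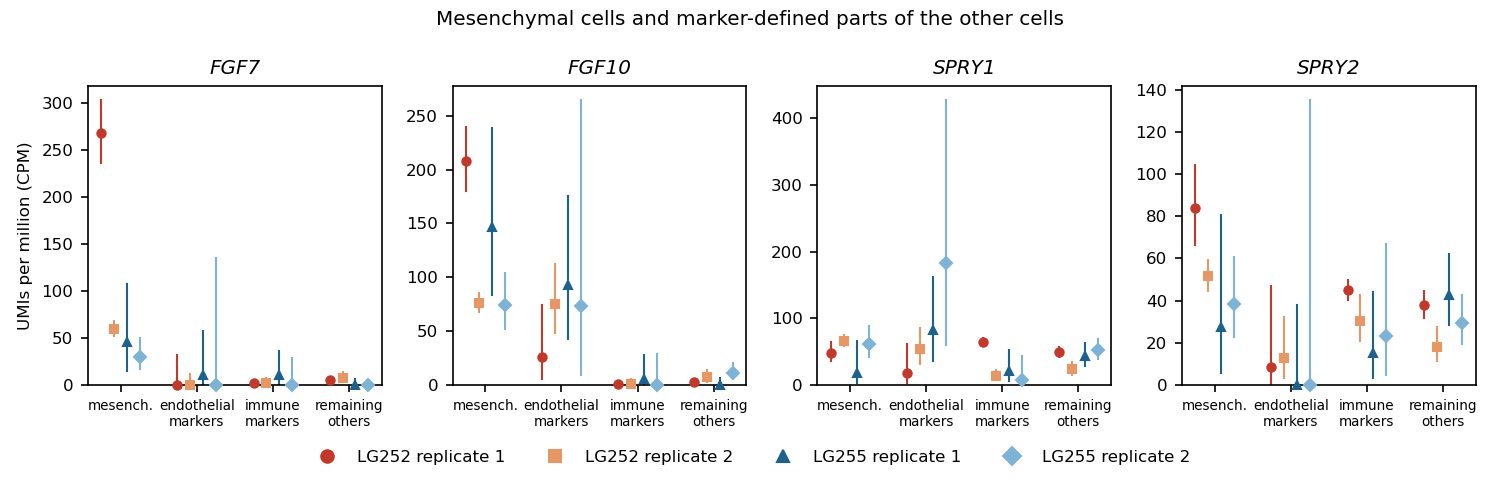
FGF7, FGF10, SPRY1 and SPRY2 by library, as CPM with exact 95% Poisson bars, in mesenchymal cells and in other cells with endothelial markers only, with immune markers only and with neither. The 60 cells with both marker sets are not drawn. FGF10 is at 25.4 to 92.4 CPM in the cells with endothelial markers only, which hold a single FGF7 molecule.

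FGFBP2 was found mainly in epithelial cells, and almost wholly in those of LG252. Binding proteins of its family release FGFs from the matrix in mammals. Its gene lies on chromosome 15 at 19225870 to 19229456, beside its relative FGFBP1 (19261490 to 19267922). Epithelial cells held 103, 80, 5 and 3 UMIs, or 14.0, 13.3, 1.48 and 0.369 CPM, mesenchymal cells 0 in each library, and other cells 1, 9, 1 and 0. Against 3 counts over the mesenchymal class, the epithelial level was at least 13.5-fold higher, and it was 11.8 times the level of other cells (exact 95% interval 6.45 to 24.0, counting error only). FGFBP1 stood at 87.7, 78.0, 35.2 and 20.5 CPM in epithelial cells and was called higher there than in mesenchymal cells (log2 fold change 6.42, SE 0.87, edgeR adjusted p = 0.000343). With a gap of that size, mesenchymal counts could not have carried FGFBP1 past the filter on low counts, which it failed in mesenchymal cells alone. The direction of its call was thus nearly fixed in advance.

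The 3 receptors were distributed differently. FGFR1 (chromosome 14, 32344691 to 32438457), which in mammals is the main receptor of mesenchyme, was at 57.6, 45.0, 64.2 and 61.8 CPM in mesenchymal cells, 15.7, 20.3, 29.0 and 14.5 CPM in epithelial cells and 8.47, 14.5, 21.6 and 17.6 CPM in other cells. The lowest mesenchymal value was above the highest of the other classes. FGFR1 was 2.14-fold lower in epithelial than in mesenchymal cells (log2 fold change -1.10, SE 0.29, edgeR adjusted p = 0.0162) and 2.89-fold higher in mesenchymal than in other cells (1.53, SE 0.31, adjusted p = 0.00471). The first call was lost without LG252 replicate 2 (adjusted p = 0.0563), without LG255 replicate 2 (adjusted p = 0.0822) and when cells were thinned to 1000 UMIs (adjusted p = 0.055), with log2 fold changes of -0.97 to -1.31.

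FGFR3 (chromosome 6, 131016645 to 131121160), known in mammals for restraining bone growth and also present in epithelia, was at 74.2, 90.1, 57.6 and 52.4 CPM in epithelial cells. Mesenchymal cells held 3, 17, 0 and 2 UMIs of it, or 0 to 4.53 CPM, and other cells 1.73, 9.81, 12.9 and 15.7 CPM. No value of the mesenchymal or other cells reached the epithelial range. The fitted level was 26.2-fold higher in epithelial than in mesenchymal cells (log2 fold change 4.71, SE 0.65, edgeR adjusted p = 0.000391), and also above other cells (3.16, SE 0.54, adjusted p = 0.00224). Mesenchymal values of at most 4.53 CPM could not have carried FGFR3 past the filter on low counts. The direction of the first call was thus nearly fixed in advance, and that call adds little to the counts.

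FGFR2 (chromosome 6, 85726002 to 85859193), the receptor of FGF7 and FGF10, was present in both tissue classes. It was at 46.0, 56.7, 104 and 79.7 CPM in epithelial cells and 69.1, 78.0, 27.5 and 40.5 CPM in mesenchymal cells, so that mesenchymal cells were higher in both LG252 libraries and epithelial cells in both LG255 libraries. The test called no difference between the classes (log2 fold change 0.51, SE 0.50, edgeR adjusted p = 0.512). The gene counts do not tell the epithelial from the mesenchymal splice form.

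Against other cells, 2 of 7 members were called in epithelial cells (FGFR3 higher, and FGF10 lower at -3.79, SE 1.01, edgeR adjusted p = 0.0259), beside 16.9% of all genes tested. Both calls were lost without LG252 replicate 2, at adjusted p = 0.0585 for FGFR3 and 0.125 for FGF10, and the FGF10 call also without either LG255 library (adjusted p = 0.0756 and 0.0951) and when cells were thinned (adjusted p = 0.1). FGFR2 stood just outside the threshold (1.59, SE 0.50, adjusted p = 0.0503). When the other cells were restricted to those without a UMI of LOC129339097 (2639, 459, 90 and 76 cells), an alternative chosen after seeing the data, FGFR2 in them was at 6.75, 6.06, 13.1 and 11.7 CPM in place of 8.96, 13.4, 53.9 and 34.2 CPM, and FGFR3 at 2, 1, 1 and 3 UMIs. With these cells FGFR2 was higher in epithelial cells at a log2 fold change of 3.26, FGFR1 higher at 1.28 and FGF7 lower at -2.58. The restriction used the gene of the class rule and removed the other cells closest to the epithelial class by that rule. These fold changes thus draw on the rule itself and add no support. Between mesenchymal and other cells the 3 members called were FGF7, FGF10 and FGFR1, all higher in mesenchymal cells, beside 25.4% of all genes tested.

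**Figure D4:**
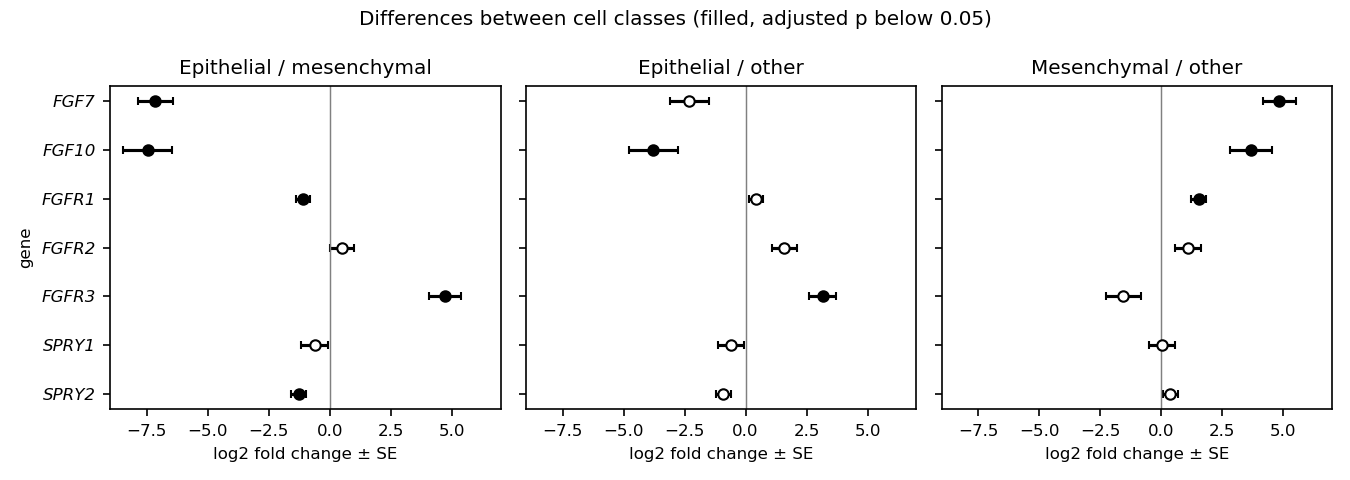
Log2 fold changes with their SE for the 7 members that passed the filter, from edgeR, in the 3 comparisons of classes; filled points have an adjusted p under 0.05. Between epithelial and mesenchymal cells FGF7 lies at -7.15 and FGF10 at -7.47, and FGFR3 at 4.71.

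The Sprouty genes were less tied to 1 class. SPRY2 (chromosome 3, 36828982 to 36835895) was at 83.8, 51.7, 27.5 and 38.3 CPM in mesenchymal cells and 16.3, 12.1, 17.7 and 16.2 CPM in epithelial cells, with no overlap. It was 2.42-fold lower in epithelial cells (log2 fold change -1.28, SE 0.31, edgeR adjusted p = 0.0108), a call lost without LG252 replicate 2 (-1.14, adjusted p = 0.104). Other cells held 21.4 to 41.8 CPM of SPRY2, and neither comparison with them passed the test (adjusted p = 0.0602 and 0.423).

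SPRY1 (chromosome 10, 40117448 to 40124827) was at 12.5, 11.8, 55.0 and 44.3 CPM in epithelial cells, 48.2, 66.3, 18.4 and 61.8 CPM in mesenchymal cells and 58.1, 21.4, 42.0 and 49.9 CPM in other cells. The classes overlapped, and no class comparison called it (edgeR adjusted p = 0.473, 0.484 and 0.988). SPRY2 was found more often in cells with SPRY1 than in cells without it, in 27.9% of mesenchymal cells with SPRY1 and 14.7% of those without, and in 19.9% and 11.2% of epithelial cells, with depth per cell not matched. In mesenchymal cells of LG255 replicate 2 the order was the opposite (10.5% and 12.6%), and LG255 replicate 1 had 2 mesenchymal cells with SPRY1. SPRY4 (chromosome 4, 68611260 to 68629426) gave 24 UMIs in all, at most 4 in any class of a library, and its mesenchymal to epithelial ratio of 1.77 had an exact 95% interval of 0.302 to 7.36.

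Among other cells, the immune marker cells of LG252 replicate 1 (1986 cells) held 64.2 CPM of SPRY1 and 45.0 CPM of SPRY2. In the other libraries, with 276, 35 and 32 such cells, SPRY1 was at 13.1, 20.2 and 7.64 CPM and SPRY2 at 30.0, 15.1 and 22.9 CPM. Within LG252 replicate 1, the 774 cells with CD79A or CD79B, parts of the B cell receptor, held 81.6 CPM of SPRY1, and the remaining immune marker cells 52.7 CPM. The 40 cells there with complement C1Q genes, made by macrophages, gave 1 UMI of it. In LG252 replicate 2 the 32 CD79A or CD79B cells, with 14.4 CPM from 2 UMIs, did not stand above the remaining immune marker cells, with 14.9 CPM. Endothelial marker cells held 16.9, 53.4, 82.2 and 183 CPM of SPRY1. These values rest on only 32 UMIs in 20 of 163 cells, and the last on a library with 13 such cells.

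Between the animals, 4 of the 6 members tested in epithelial cells were called by edgeR, beside 33.3% of all 12591 genes tested. SPRY1 and FGFR2 were lower in LG252, and FGFBP2 and FGFR3 were higher. The share of calls over all genes was itself large, 2 libraries stood against 2, and animal and digestion change together. The median mitochondrial share of UMIs in epithelial cells of the LG252 libraries was 1.12% and 1.50%, below the 4.84% and 3.79% of the LG255 libraries, and its part in these differences was not tested.

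SPRY1, at 12.5 and 11.8 CPM in LG252 epithelium and 55.0 and 44.3 CPM in that of LG255, was 3.73-fold lower in LG252 (log2 fold change -1.90, SE 0.20, edgeR adjusted p = 0.000201). FGFBP2, at 14.0 and 13.3 against 1.48 and 0.369 CPM, was 19.6-fold higher in LG252 (4.29, SE 0.45, adjusted p = 0.000185). It passed the filter on low counts only through LG252, with 8 UMIs in all LG255 epithelium. Its call was thus nearly fixed in advance and adds no support to the counts. Both gaps exceeded the spread within each animal, which 2 against 2 libraries can show by chance. Over all alternatives the log2 fold change ran from -2.14 to -1.83 for SPRY1 and from 3.42 to 8.37 for FGFBP2.

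FGFR2 reached 46.0 and 56.7 CPM in LG252 epithelium, and 104 and 79.7 CPM in that of LG255 (log2 fold change -0.71, SE 0.19, edgeR adjusted p = 0.0221). FGFR3 went the other way, with 74.2 and 90.1 against 57.6 and 52.4 CPM (0.69, SE 0.19, adjusted p = 0.0226). Neither gene overlapped between animals, which 2 against 2 libraries can show by chance, and the share of all genes without overlap was not counted. Both calls were lost without either LG255 library, that of FGFR2 also without LG252 replicate 1 and that of FGFR3 without LG252 replicate 2. Over all alternatives the log2 fold change ran from -1.09 to -0.56 for FGFR2 and from 0.58 to 0.89 for FGFR3. FGFR1 and SPRY2 were not called (adjusted p = 0.821 and 0.698).

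The same differences were seen in shares of cells at equal depth. After thinning each epithelial cell to 1000 UMIs, SPRY1 was found in a mean of 1.17% of LG252 and 5.22% of LG255 cells (11.4% and 28.4% before thinning), FGFBP2 in 2.35% and 0.0569%, FGFR2 in 4.70% and 9.79%, and FGFR3 in 8.95% and 5.37%. The libraries of each animal did not overlap for these 4 genes, and the exact permutation test gave p = 0.333, the smallest that 2 against 2 libraries allow. SPRY2, which edgeR did not call, was also without overlap after thinning (0.822% and 1.90%, permutation p = 0.333). Libraries in groups of 2 can be without overlap by chance, and the share of all genes without it was not counted. The shares come from the same counts as the calls and are no independent support.

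Since the summed basal list (COL17A1, LAMB3 and ITGB4 among its genes) ranged from 183 to 843 CPM in the epithelial class of the libraries, the animals were also compared within 275, 314, 70 and 101 epithelial cells with at least 5 UMIs of that list, an alternative chosen after seeing the data. SPRY1 there was at 13.3, 13.9, 59.0 and 51.1 CPM (log2 fold change -1.95, edgeR adjusted p = 0.000157), and FGFR3 at 65.6, 80.2, 42.3 and 42.0 CPM (0.84, adjusted p = 0.0204). FGFBP2 gave 135 UMIs in LG252 and 0 in LG255, at least 10.0-fold higher in LG252. FGFR2 kept its direction but was not called (-0.63, adjusted p = 0.060). In the epithelial cells below that minimum all 4 were called in the same directions as in the whole class, with FGFBP2 at 3.42 (adjusted p = 0.00722). There too FGFBP2 passed the filter on low counts only through LG252, so its call adds no support.

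**Figure D5:**
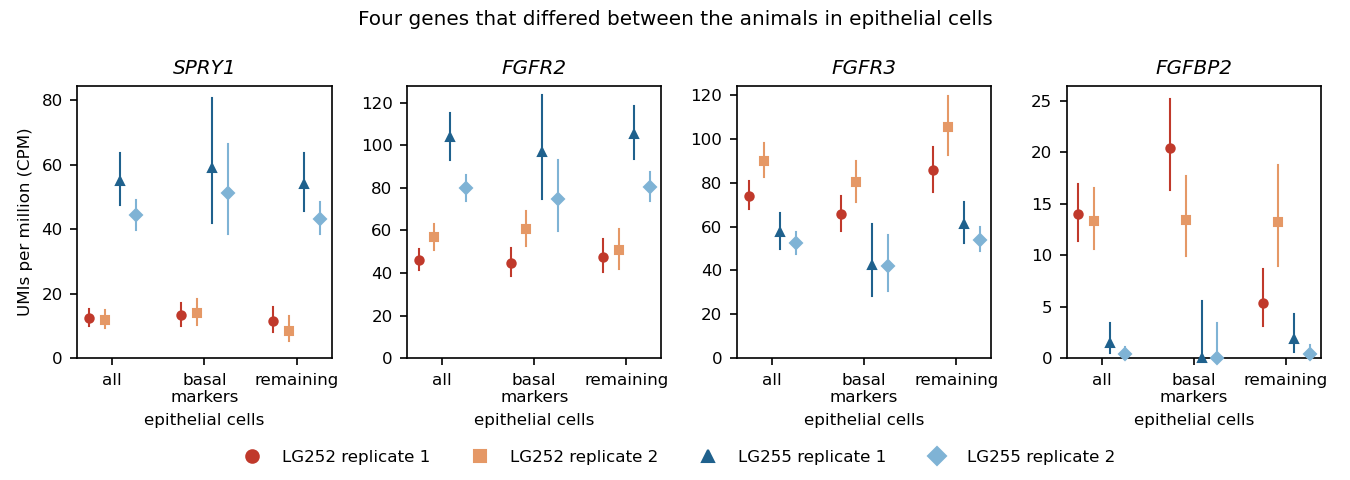
SPRY1, FGFR2, FGFR3 and FGFBP2 in all epithelial cells, in those with basal markers and in the remaining epithelial cells, as CPM with exact 95% Poisson bars, 1 point per library. SPRY1 is at 13.9 CPM or less in both LG252 libraries and at 43.2 CPM or more in both LG255 libraries in each of the 3 sets of cells.

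In mesenchymal cells no member was called between the animals, beside 0.445% of 7637 genes. FGF7, with 268 and 59.4 CPM in the LG252 libraries and 45.9 and 29.8 CPM in the others, gave a log2 fold change of 2.40 (SE 0.85, edgeR unadjusted p = 0.0274, adjusted p = 0.334), and FGFR2 one of 1.16 (unadjusted p = 0.0325, adjusted p = 0.352). Without LG252 replicate 2, which leaves 1 LG252 library, the log2 fold change was 3.19 for FGF7, 1.32 for FGF10 and 1.45 for SPRY2. In other cells FGFR2 was called lower in LG252 (-1.94, SE 0.36, adjusted p = 0.0489), beside 5.29% of 10713 genes, but not among other cells without LOC129339097 (-0.64, adjusted p = 0.575), nor without either LG255 library (adjusted p = 0.329 and 0.382).

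Whether the animals differed more in 1 class than in the other was tested as an interaction, which called none of 9 members and 0.145% of 13081 genes. FGFBP2, with 0 mesenchymal UMIs, could not be estimated there (SE 11388), and FGF3 only poorly (SE 4.05). Their results thus say nothing about a difference. SPRY1 had the smallest p (log2 difference -2.54, SE 0.63, edgeR unadjusted p = 0.0013, adjusted p = 0.229), followed by FGFR2 (-2.03, SE 0.53, adjusted p = 0.262) and SPRY2 (-1.42, SE 0.58, adjusted p = 0.655), all with an unadjusted p under 0.05. Of all 13081 genes, 904 had an unadjusted p under 0.05. Over all alternatives the log2 difference ran from -4.11 to -2.03 for SPRY1 and from -2.74 to -1.76 for FGFR2.

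Within the epithelium, cells with at least 3 UMIs summed over SP6, DLX3, FOXI3, IRX1, ISL1 and TBX1, taken as dental epithelial markers, were compared with the remaining epithelial cells. The list was not specific to these cells. It summed to 221 to 370 CPM in them, but to 403 to 669 CPM in endothelial marker cells and 2.09 to 168 CPM in mesenchymal cells. The marker cells may thus not be dental epithelium. None of the 6 members tested was called after adjustment, beside 0.303% of 10225 genes. FGFR1, at 12.8, 30.8, 87.4 and 44.4 CPM against 16.8, 15.8, 24.0 and 12.9 CPM, had an unadjusted p of 0.0139 in edgeR (log2 fold change 0.82, SE 0.29, adjusted p = 0.368) and was higher in 3 of 4 libraries.

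FGFR3 was lower in basal marker cells than in the rest of the epithelium in each library, at 65.6, 80.2, 42.3 and 42.0 against 85.6, 106, 61.3 and 54.0 CPM (log2 fold change -0.42, SE 0.13, edgeR adjusted p = 0.0462), beside 8.97% of 10651 genes called. The fold change was -0.38 to -0.44 without each library in turn, but the call was lost in each of those fits (adjusted p = 0.0605 to 0.218). The other 5 members tested were not called, among them FGFR1 (0.49, adjusted p = 0.139). FGFR2 and FGFR3 shared cells, FGFR3 being in 41.4% of epithelial cells with FGFR2 and 33.4% of those without, with depth per cell not matched.

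Of the wider pathway, FGFR4, a receptor in the same family, followed the mesenchymal class. Mesenchymal cells held 4, 58, 1 and 23 UMIs of FGFR4 and epithelial cells 0, 1, 0 and 1 (log2 fold change -6.96, SE 0.76, edgeR adjusted p = 9.39e-05). Such epithelial counts could not have passed the filter on low counts, so the direction of that call was nearly fixed in advance. Among the 7 receptors and co-receptors tested, 3 were called higher in epithelial cells (15% of all genes were), among them FLRT1 (5.21), and 2 lower (12.6% of all genes), FGFR4 and NCAM1 (-3.19). Of 22 genes of heparan sulfate proteoglycans and their enzymes, 5 were higher, including AGRN (3.03) and SDC1 (3.06), and 6 lower, including SDC2 (-4.64), SDC3 (-4.44) and HSPG2 (-3.29). Core proteins of this kind hold FGFs at the cell surface or in the basement membrane. Of 12 feedback inhibitors and target genes 1 was called each way, and of 21 adaptors and RAS pathway genes 3 were higher, NRAS (1.35) among them, and none lower. The median log2 fold change over all genes was 0.05.

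Between the animals, 6 of 12 feedback inhibitors and targets were called higher in LG252 epithelium and 4 lower, beside 20.5% and 12.8% of all genes. The ERK phosphatase gene DUSP5 was at 89.9 and 118 CPM in the LG252 libraries, far above its 3.25 and 3.57 CPM in those of LG255 (log2 fold change 4.99, SE 0.26, edgeR adjusted p = 1.44e-05), and DUSP6 at 42.7 and 45.0 CPM against 21.0 and 10.7 CPM (1.66, adjusted p = 0.00156). DUSP4 (2.78) and the immediate early gene IER2 (2.30) were also higher in LG252. SPRY1, a feedback inhibitor too, was lower in LG252, like the 4 genes of that list called lower. Of 22 heparan sulfate genes 7 were higher, with HS3ST1 (5.05), SDC2 (2.15) and EXT1 (1.79) among them, and 1 lower. In basal marker cells 4 of 6 receptors and co-receptors tested, FLRT2 (0.83), FLRT3 (1.93), CDH2 (0.66) and ANOS1 (1.23), were higher than in the remaining epithelium, with 5 of 19 heparan sulfate genes and DUSP6 (0.86), and no gene of these lists was lower, beside 4.21% of all genes called higher and 4.76% lower.

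The genes whose levels were most like those of the members are given by Pearson's r of log2 CPM over the 12 sums of library and class, which share libraries and depth, among 12275 genes. CPXM2 and BCHE (both 0.98) were most like FGF7, and ENPP2, GPM6B and APCDD1 (each 0.98) most like FGF10. For FGFR1 these were MRC2 (0.97), RBP5 and EVC2 (both 0.96), and for FGFR3 LOC129330827 (0.99), KLF5 (0.99) and SFN (0.98). No gene came as close to SPRY1, where PPIP5K2 (0.88) and ZNF330 (0.87) led, and for SPRY2 the first was NCOA7 (0.94).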

How the data were processed

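The authors deposited raw UMI counts, whole numbers for each gene in each barcode, made with Cell Ranger 7.1.0 per the file headers (the submitters' processing notes name 2.1.0). Barcodes were used as deposited. Counts were summed per library and class and tested with edgeR 4.0.16 in R 4.3.3 (TMM, filterByExpr, quasi-likelihood test, Benjamini-Hochberg adjustment over all genes tested), with parts of at least 10 cells. The script for these tests was tested on simulated data. Alternatives were DESeq2 1.42.0, its size factors, no filter, other cell filters and class minimums, thinning and single libraries left out. Scrublet in scanpy 1.11.5 called 24 of 8612 barcodes as doublets, so few that it was taken not to have worked, and removing its highest scores (152, 39, 5 and 13 barcodes, at an assumed 0.8% per 1000) is an alternative.

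CPM are UMIs of a gene per 1000000 UMIs of the cells summed. Intervals and the floor of 3 counts cover counting error only. All 10 members are named; of the pathway lists, up to 12 genes per comparison with the smallest p, and for likeness the 3 nearest genes. Coordinates come from the reference gene table of MPM_Emac_v1.0, which matched 23658 of 24025 features. Members and lists were chosen with earlier results of these data known. A basal marker and a pathway gene of these lists are not reported here.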

Additional observations from a re-analysis of the deposited data

Results flagged for a closer look

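Differences within each library were screened for the members tested, 7 in each of the 3 comparisons of classes and 6 each for dental and basal marker cells. For 3 results, all libraries of 1 animal lay on one side and all libraries of the other animal on the opposite side. With 2 against 2 libraries such a pattern can arise by chance, and its share over all genes was not counted. FGFR2 was lower in epithelial than in mesenchymal cells in both LG252 libraries (mean difference -22.2 CPM) and higher in both LG255 libraries (57.7 CPM), a gap of -79.95 CPM between animals. The interaction term that tests this difference gave -2.03 on the log2 scale, with an edgeR adjusted p of 0.262, and the LG255 mesenchymal values rest on 19 and 106 cells.

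FGFR3 was higher in dental marker cells than in the remaining epithelial cells in both LG252 libraries (by 16.5 CPM in replicate 1 and 0.69 CPM, or 90.6 against 89.9 CPM, in replicate 2, a mean difference of 8.60 CPM) and lower in both LG255 libraries (-32.7 CPM), a gap of 41.3 CPM. The sign in LG252 replicate 2 rests on a difference of under 1 CPM. The LG255 dental marker cells held 7 and 9 UMIs of FGFR3, and the difference between animals was not tested.

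FGFBP2 was higher in basal marker cells than in the remaining epithelial cells in both LG252 libraries (by 15.0 CPM in replicate 1 and 0.17 CPM, or 13.4 against 13.2 CPM, in replicate 2, a mean difference of 7.58 CPM) and lower in both LG255 libraries (-1.13 CPM), a gap of 8.71 CPM, which rests on LG252 replicate 1. LG255 held 5 and 3 UMIs of FGFBP2 in the whole epithelial class, and this difference was not tested.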

How the results depend on the processing

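Of 881 recomputed fold changes of members, 770 kept their direction and side of the threshold, 32 lost a call, 28 gained one and 51 changed sign; the cause was not tested for any of them. Leaving out 1 library moved the members called to 3 to 6 (from 5) for epithelial against mesenchymal cells, 0 to 4 (from 2) for epithelial and 2 to 5 (from 3) for mesenchymal against other cells, 0 (from 1) for basal marker cells, and, between the animals, 2 to 3 (from 4) in epithelial, 0 to 3 (from 0) in mesenchymal and 0 to 4 (from 1) in other cells and 0 to 2 (from 0) for the interaction. Fits of the animals without 1 library assume that the lone library varies like the others. MSX1 or LHX8 cells without LG255 replicate 1 were not run, since that library was not in the fit.

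For epithelial against other cells, 5 members were called with the DESeq2 test, 5 with no filter, 5 with other cells lacking LOC129339097, 4 with doubled class minimums and 1 after thinning. The basal marker call of FGFR3 went to 0 with DESeq2 size factors, the DESeq2 test, no filter, thinning, no library block and a doubled marker minimum. With no filter 1 member was called between animals in mesenchymal cells and 2 for the interaction. The FGFR2 call in other cells went to 0 with barcodes of 200 or more genes, doubled class minimums, and others lacking LOC129339097.

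Sign changes fell on values that were not called. They were, for epithelial against mesenchymal cells, FGFR2 at -0.068 after thinning and SPRY1 at -1.20 to 0.021 with libraries left out. For mesenchymal against other cells, SPRY1 was at -0.029 (DESeq2 size factors), -0.11 (DESeq2 test), -0.15 (doubled class minimums), -0.17 (no library block) and -0.55 to 0.44 (libraries left out), and FGFR3 at 1.48 (others lacking LOC129339097). For dental marker cells, SPRY1 was at -0.066 (thinned), FGFBP2 at 0.11 (no library block) and FGFR2 at -0.33 to 0.014 (libraries left out). For basal marker cells, FGFR2 was at 0.0109 with DESeq2 size factors, 0.0106 with the DESeq2 test, 0.11 after thinning and -0.071 to 0.038 with libraries left out, and SPRY2 at -0.10 to 0.18. For MSX1 or LHX8 cells, FGF7 was at 0.070 (no library block) and -1.06 to 0.33 (libraries left out), and FGF10 at -0.14 (doubled marker minimum) and -0.24 to 0.61.

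Between the animals in epithelial cells, FGFR1 was at 0.051 (doubled class minimums) and -0.45 to 0.29 (libraries left out), and SPRY2 at -0.37 to 0.085. In mesenchymal cells FGFR1 was at 0.25 (thinned) and -0.36 to 0.11, and FGF10 at -0.25 to 1.32. In other cells FGF10 was at 0.21 (doubled class minimums) and -3.16 to 0.21, SPRY1 at 0.22 (thinned), 1.50 (others lacking LOC129339097) and -1.08 to 0.39, and SPRY2 at -0.44 to 0.55. For the interaction, FGFR1 was at 0.082 (DESeq2 size factors), 0.049 (DESeq2 test), 0.18 (doubled class minimums) and -0.65 to 0.54 (libraries left out), FGF10 at -0.23 (without the highest Scrublet scores), -0.80 (thinned) and -2.54 to 3.56, FGFR3 at -0.20 (barcodes of both classes assigned), -2.22 (thinned) and -5.85 to 0.49, FGF7 at -3.52 to 0.044 and FGF3 at -0.91 to 1.38.

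Over all genes, calls ranged with the setting from 1533 to 3940 (3384 as reported) for epithelial against mesenchymal, 593 to 3015 (2069) for epithelial against other, 949 to 3741 (3115) for mesenchymal against other, 0 to 284 (31) for dental marker, 1 to 1233 (955) for basal marker and 0 to 171 (2) for MSX1 or LHX8 cells. Between the animals they ranged from 1396 to 5035 (4192) in epithelial, 0 to 1071 (34) in mesenchymal and 0 to 4340 (567) in other cells and 4 to 605 (19) for the interaction. Same-numbered libraries of the animals did not deviate together (Pearson correlations of deviations -0.0919, -0.0262 and -0.0278 over genes in the 3 classes). The numbers were therefore not used as pairs, though such correlations cannot exclude a pairing. A replicate block kept 4 members called in epithelial, 0 in mesenchymal and 1 in other cells, and 0 for the interaction.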

Other observations

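Of 19 other FGF genes in the files, 2 gave no UMI (FGF8 and FGF17), 9 gave 1 to 19 and 6 gave 20 to 99 over all barcodes. FGF8, a ligand of the early dental epithelium in mammals, was thus not detected, and FGF4 and FGF20, ligands of the mammalian enamel knot, gave 1 UMI each. The highest count was that of FGF12, an FGF that stays inside the cell and acts on sodium channels rather than on FGF receptors in mammals, with 302 UMIs in epithelial, 8 in mesenchymal and 96 in other cells. Among secreted ligands, FGF22 gave 56 UMIs in epithelial, 9 in mesenchymal and 6 in other cells, and FGF9 gave 33, 5 and 13. Most molecules of both were thus counted in the epithelial class. That class also held 24907209 UMIs of all genes, against 5287991 in mesenchymal and 16922965 in other cells. The counts alone therefore do not show a higher level in epithelial than in mesenchymal cells. FGF12 was called higher in epithelial than in mesenchymal cells (log2 fold change 3.06, SE 0.55, edgeR adjusted p = 0.00183) and lower in mesenchymal than in other cells (-2.53, adjusted p = 0.00914). Its 8 mesenchymal UMIs could not have carried FGF12 past the filter on low counts. The direction of both calls was thus nearly fixed in advance, and they add little to the counts. FGF9 and FGF22 were too rare to be tested in these comparisons.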
